A study of Canis lupus familiaris with 31 samples.

Results

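The inflammasome and interleukin 1 system was followed in the blood of 31 Miniature Schnauzers through 10 gene symbols: the ligands IL1B, IL1A and IL18, the receptor chains IL1R1, IL1RAP and IL18R1, the decoy receptor IL1R2, the receptor antagonist IL1RN, the sensor NLRP3 and the protease CASP1. A gene was a member when the symbol in its row name was one of these. The matching used no measured value, but the symbols were listed with earlier results of these data known. Of the 10 symbols, 9 matched 1 row each among the 32704 rows of the table of counts, and CASP1 matched none. All 9 rows passed the filter on low counts and were tested among 13918 genes.

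Inflammasomes are protein complexes that form in the cytosol of myeloid cells when a sensor such as NLRP3 detects a disturbance of the cell, for example crystals or a loss of potassium, and they activate caspase-1. Caspase-1 cuts the inactive precursors of interleukin 1 beta and interleukin 18 and opens pores through which they leave the cell. Interleukin 1 alpha and beta bind IL1R1, which signals with IL1RAP through MYD88 to NF-kB, while IL1R2 binds the same ligands without signalling and IL1RN occupies the receptor without activating it.

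The study compared dogs with spontaneous HTG, a high concentration of triglycerides in fasting serum that is common in this breed, with dogs of the breed whose triglycerides were normal. The HTG group held 13 cases, of which 5 were female and 8 male, and the control group held 18 dogs, of which 8 were female and 10 male. The dogs were pets of advanced age with no genetic modification and no treatment by the investigators, blood was drawn fasting, and neither food nor activity was controlled. RNA of whole blood, which holds leukocytes, platelets and immature red cells, was sequenced after removal of ribosomal RNA as 1 library per dog.

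Total counts on genes lay between 14524659 and 41533599, with a median of 20588919 in cases and 19679367 in controls (two-sided permutation test on log10 totals, P = 0.990). All tested markers of neutrophils, monocytes, T cells, B cells, platelets and erythroid cells had counts in every library. The dogs split by the level of 364 small non-coding RNA rows, whose mean was 1.68 log2 CPM or more in 10 dogs (5 cases and 5 controls) and did not exceed 1.41 in the remaining 21 (8 cases and 13 controls). The study's methods describe a pilot batch with as many cases and as many controls as the former side, but which dogs it held is not stated, so whether the split is that batch was not tested. The TMM normalization factor of control 3 was 0.527, against 0.752 to 1.24 in the other dogs. Levels are given as CPM (the count of a gene scaled to a common library size, here with TMM normalization) and, because gene lengths were not used, are compared between dogs and not between genes. Each dog was sampled once, so p-values measure the spread between dogs.

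No member passed an adjusted P-value of 0.05 between cases and controls in edgeR's quasi-likelihood test with Benjamini-Hochberg adjustment over all genes tested, a threshold that 0.0359% of all genes passed. At an unadjusted P-value under 0.05, IL1A was higher in cases and IL1R2 was lower, that is 2 of 9 members against 9.81% of all genes. The log2 fold changes of cases over controls were positive for 4 members and negative for 5, with a median of -0.06 beside -0.02 over all genes tested. For every member the values of the groups overlapped. In bulk RNA, fewer cells of a type and less RNA per cell cannot be told apart.

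**Figure D1:**
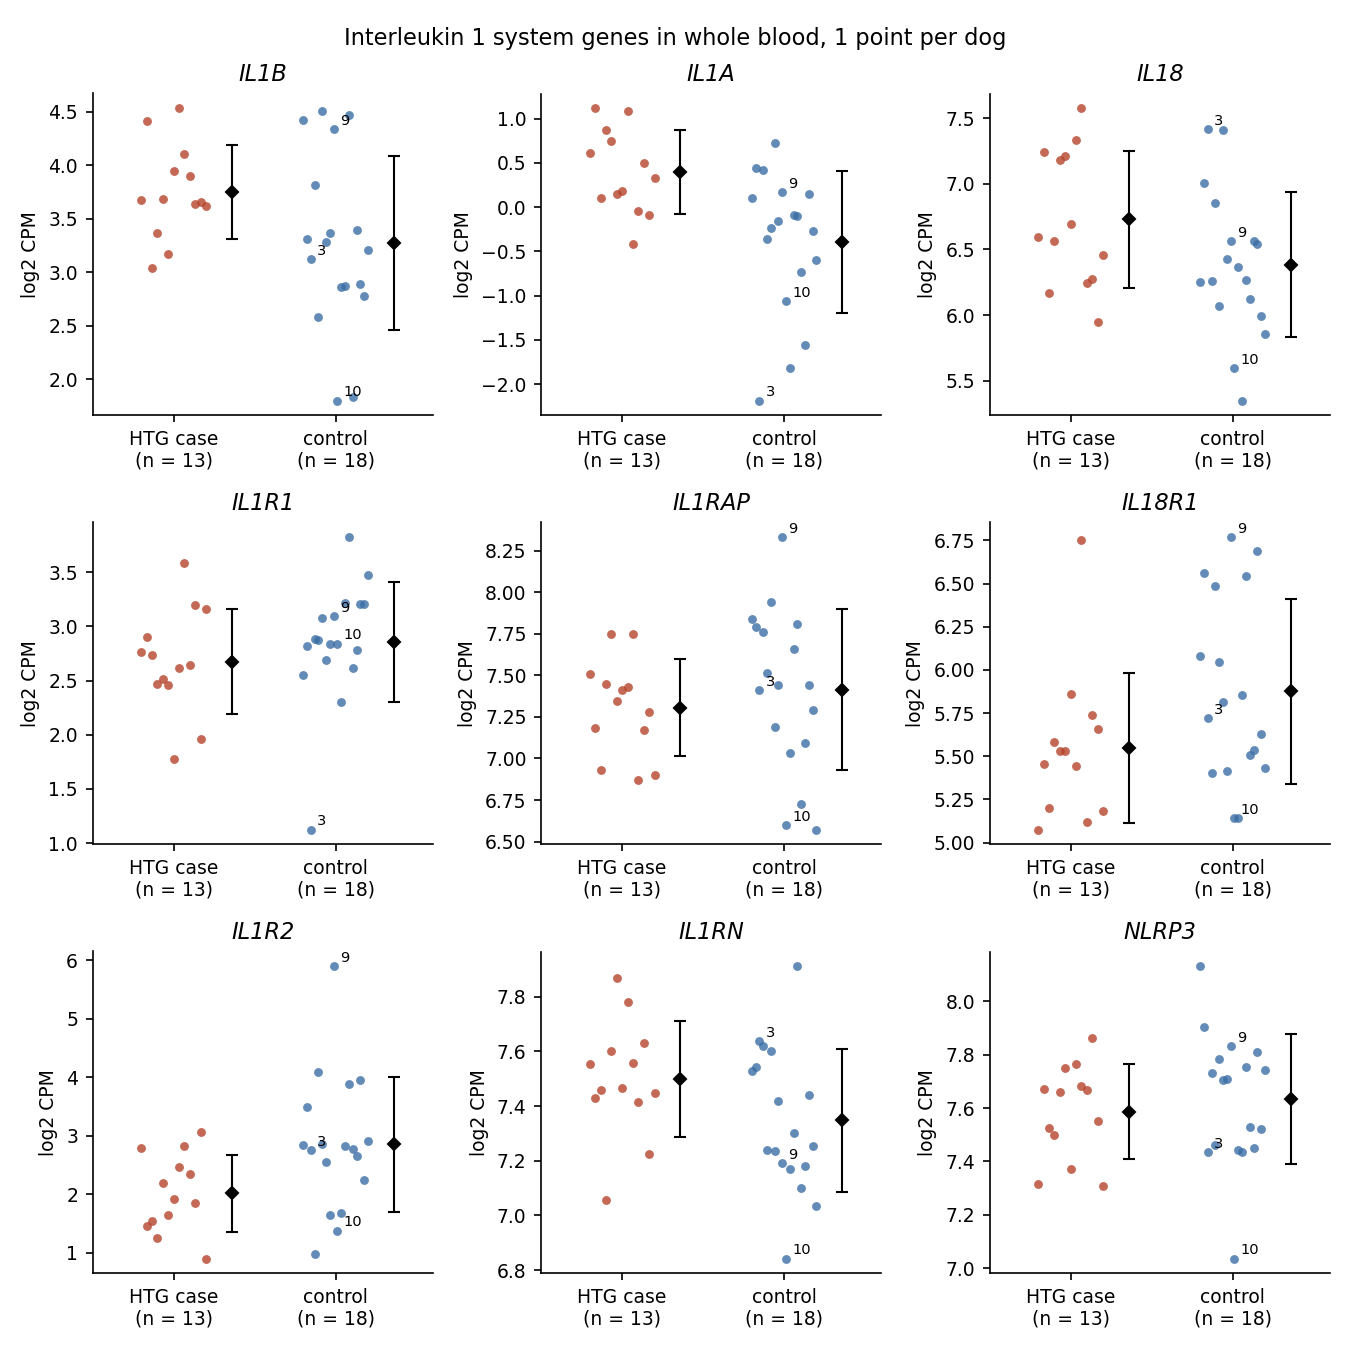
Level of each of the 9 members in log2 CPM (vertical axis, each panel with its own range) in 13 HTG cases and 18 controls, with 1 point per dog, the diamond and bar for the group mean ± SD, and controls 3, 9 and 10 marked by their numbers. Control 9 stands above all other dogs for IL1R2, control 3 lies lowest for IL1A and IL1R1, and control 10 lies lowest for IL1B, IL1RN and NLRP3.

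IL1B (ENSCAFG00000007249) encodes interleukin 1 beta, the secreted ligand that needs caspase-1. Its level in cases ran from 8.16 CPM in case 3 through a median of 12.7 to 23.1 in case 8, and in controls from 3.40 in control 10 through a median of 9.40 to 22.7 in control 6. The upper ends of both groups were thus alike, whereas the 7 lowest dogs were all controls, and 11 of 13 cases lay above the control median. Its log2 fold change was 0.33 (SE 0.24, 95% confidence interval -0.15 to 0.81, edgeR P = 0.172, adjusted P = 0.677), which does not exceed the spread between dogs.

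IL1A (ENSCAFG00000007245) encodes interleukin 1 alpha, whose precursor is active without cleavage and acts as an alarm signal from damaged cells. It was sparsely counted, with 10 to 44 read pairs per case (median 25) and 1 to 54 per control (median 16). Cases ran from 0.66 CPM in case 9 through 1.17 to 2.08 in case 2, and controls from 0.13 in control 3, which rests on 1 read pair, through 0.78 to 1.57 in control 7. The 6 lowest dogs were all controls, the 3 highest were all cases, and 12 of 13 cases lay above the control median. The log2 fold change was 0.73 (SE 0.25, 95% confidence interval 0.22 to 1.23, edgeR P = 0.00599, adjusted P = 0.287), which was rank 289 of 13918 genes by P-value. Without control 3 it was 0.68, on the high side of the small RNA split 0.81 and on the low side 0.76. The high side held 5 cases and 5 controls, control 3 among them, and there the unadjusted P-value of IL1A in edgeR was over 0.05.

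IL18 (ENSCAFG00000030180) encodes interleukin 18, the other caspase-1 substrate, which acts on T and NK cells to raise interferon gamma. Cases ran from 61.5 CPM in case 12 through 96.3 to 191 in case 9, and controls from 40.7 in control 12 through 79.6 to 171 in control 3. Controls 3 and 7 stood among the 3 highest dogs, and 9 of 13 cases lay above the control median. The log2 fold change of 0.33 (SE 0.19, edgeR P = 0.0876, adjusted P = 0.594) was 0.41 without control 3 (P = 0.0302, adjusted P = 0.244) and 0.24 without case 9 (P = 0.196). Platelet markers moved with the groups. Of 8 tested platelet markers, 8 had higher fitted levels in cases, beside 6331 of all 13918 genes. At an unadjusted P-value under 0.05 in edgeR, 7 of them were higher, beside 5.04% of all genes. The platelet marker score (the mean centred log2 CPM of the list) was 0.62 higher in cases (permutation test, P = 0.00491, adjusted over 8 scores P = 0.0393). That score ran from -0.61 to 1.20 in cases and from -1.38 to 0.89 in controls, and with it as a covariate the log2 fold change of IL18 was -0.0045 (SE 0.18, edgeR P = 0.981, adjusted P = 0.997).

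Among the signalling chains, IL1R1 (ENSCAFG00000002147), the receptor through which both interleukin 1 ligands act, ran in cases from 3.34 CPM in case 7 through 6.15 to 11.9 in case 9, and in controls from 2.09 in control 3 through 7.16 to 14.1 in control 13. Control 3 lay apart below the other dogs, and 9 of 13 cases were below the control median. Its difference on the log2 scale was -0.20 (SE 0.18, edgeR P = 0.256, adjusted P = 0.749). It was -0.13 without control 13 (P = 0.457) and -0.05 on the high side of the small RNA split.

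IL1RAP (ENSCAFG00000014029) encodes the accessory chain that IL1R1 needs in order to signal. It ran from 117 CPM in case 10 through 163 to 215 in case 5, and in controls from 95.1 in control 18 through 174 to 322 in control 9. The 6 highest dogs were all controls, but the 3 lowest were controls as well. The log2 fold change was -0.15 (SE 0.14, edgeR P = 0.290, adjusted P = 0.773), and -0.08 without control 9 (P = 0.529). It was -0.26 (SE 0.18) among the 21 dogs on the low side of the small RNA split and 0.04 (SE 0.22) among the 10 on the high side, so that its sign differed between the sides.

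IL18R1 (ENSCAFG00000002138) encodes the chain of the interleukin 18 receptor that binds the ligand. Cases ran from 33.6 CPM in case 1 through 46.1 to 108 in case 9, and controls from 35.2 in control 10 through 54.3 to 109 in control 9. Of the 8 highest dogs, all but case 9 were controls, and 11 of 13 cases lay below the control median. Its log2 fold change was -0.35 (SE 0.18, edgeR P = 0.0583, adjusted P = 0.537) and, on leaving out each dog in turn, ran from -0.51 without case 9 (P = 0.00412, adjusted P = 0.318) to -0.29 without control 9 (P = 0.111). On the high side of the small RNA split it was -0.18.

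IL1R2 (ENSCAFG00000002152) encodes the decoy receptor, which lacks the signalling part of IL1R1 and is known to be raised by glucocorticoids. It had the largest difference of the members. Cases ran from 1.78 CPM in case 13 through 3.69 to 8.25 in case 12, with 35 to 319 read pairs, and controls ran from 1.89 in control 4 through 6.90 to 59.6 in control 9, with 51 to 1261 read pairs. Control 9 stood far above the next controls, which were control 5 at 16.9, control 16 at 15.4 and control 13 at 14.6, and 5 controls in all exceeded every case. At the low end the groups met, and 11 of 13 cases lay below the control median.

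The log2 fold change of IL1R2 was -1.24 (SE 0.39, 95% confidence interval -2.03 to -0.45, edgeR P = 0.00303, adjusted P = 0.246), which was rank 171 of 13918 genes by P-value. Control 9 carried a large share of it: without that dog the log2 fold change was -0.77 (SE 0.29, P = 0.0112, adjusted P = 0.296). Leaving out each dog in turn gave -1.36 to -0.77, always with an unadjusted P-value under 0.05. Without control 3, where 1.11% of all genes passed the adjusted threshold in edgeR, the log2 fold change of IL1R2 was -1.28 with an adjusted P-value of 0.0858. The medians of cases and controls were 3.69 and 6.77 CPM on the high side of the small RNA split and 4.25 and 7.03 on the low side, so that the order was the same on both sides. DESeq2 gave -1.25 (adjusted P = 0.0606), whereas limma-voom gave -0.71 (P = 0.0847, adjusted P = 0.522).

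IL1RN (ENSCAFG00000007277) encodes the secreted receptor antagonist that blocks IL1R1, and its highest dog had 2.10 times the level of its lowest. Cases ran from 133 CPM in case 4 through 177 to 234 in case 6, and controls from 115 in control 10 through 155 to 241 in control 13. The ranges nearly coincided, but 11 of 13 cases lay above the control median. Cases over controls, the log2 fold change was 0.14 (SE 0.09, edgeR P = 0.113, adjusted P = 0.626; 0.18 and P = 0.0286 without control 13).

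NLRP3 (ENSCAFG00000010686) encodes the sensor that starts the best studied inflammasome, and by the SD of log2 CPM it varied least among the members in both groups (0.18 in cases and 0.24 in controls). Cases ran from 158 CPM in case 13 through 202 to 233 in case 11, and controls from 131 in control 10 through 209 to 280 in control 1. The case range lay inside the control range. The log2 fold change was -0.06 (SE 0.08, 95% confidence interval -0.22 to 0.11, edgeR P = 0.489, adjusted P = 0.868), -0.09 without control 10 and -0.02 without control 1. For CASP1, NCBI RefSeq lists the symbol as a synonym of the dog gene CASP4. The row of that name may therefore stand for CASP1, though it was counted among the wider pathway genes. The row named CASP4 (ENSCAFG00000014860) ran from 28.6 through 46.9 to 62.2 CPM in cases and from 25.2 through 40.2 to 88.1 in controls. Its log2 fold change was 0.14 (SE 0.13, edgeR P = 0.292, adjusted P = 0.774). It was 0.24 without control 9, 0.10 without case 9 (P = 0.468) and 0.045 with the monocyte marker score as a covariate.

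**Figure D2:**
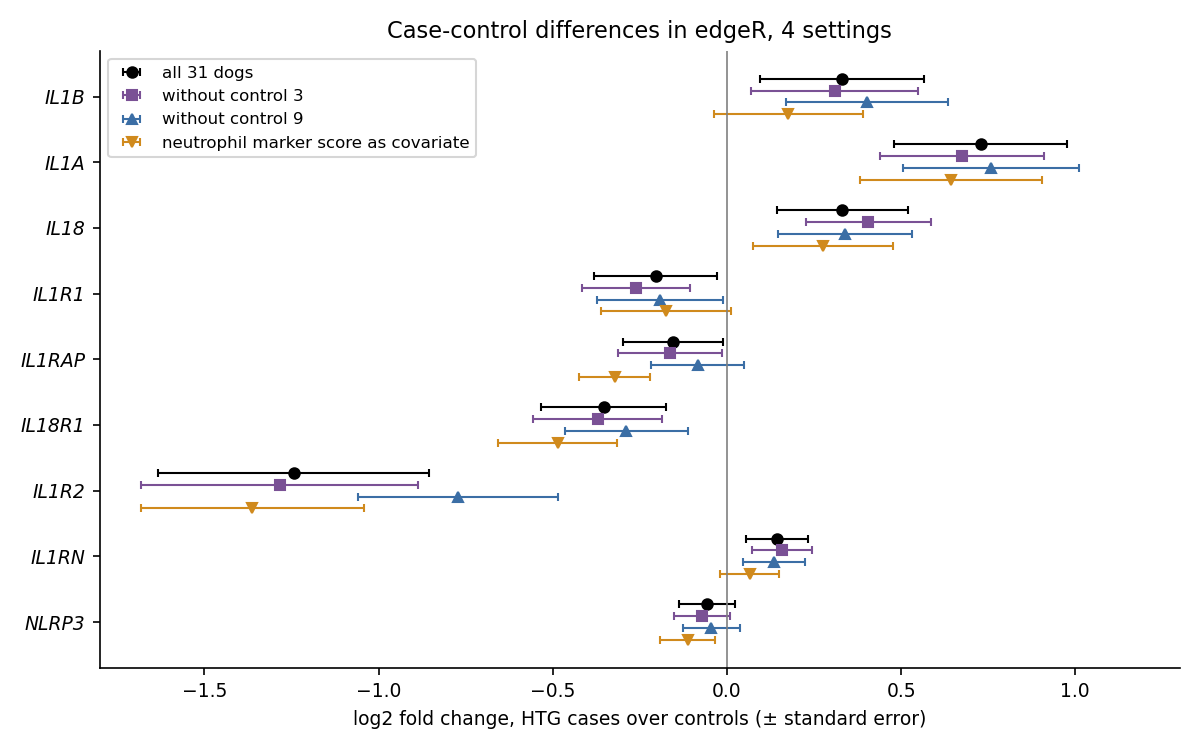
Log2 fold change of cases over controls (horizontal axis) with its standard error for each member (vertical axis) in edgeR, with all 31 dogs, without control 3, without control 9, and with the neutrophil marker score as a covariate. IL1R2 moves from -1.24 to -0.77 without control 9, IL1RAP from -0.15 to -0.32 with the neutrophil score, and every estimate keeps its sign over these 4 settings.

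Neutrophils and monocytes are known sources of these transcripts in blood, and the differences were also fitted with marker scores as covariates. Neutrophil markers stood at 0.30 higher in cases (permutation test, P = 0.0692, adjusted P = 0.230), with 7 of 9 tested markers higher. MMP9 had a log2 fold change of 1.05 (edgeR P = 0.0388, adjusted P = 0.475), the other 8 lay between -0.02 and 0.28, and the median was 0.08. The score ran from -0.36 to 0.67 in cases and from -0.94 to 1.04 in controls, where control 9 was highest. That dog was also highest for IL1RAP, IL18R1 and IL1R2, and fits with the score were not run without it. With this score in the fit, the log2 fold change of IL1RAP was -0.32 (SE 0.10, P = 0.00365, adjusted P = 0.191), that of IL18R1 -0.49 (SE 0.17, P = 0.00780, adjusted P = 0.226) and that of IL1R2 -1.36 (SE 0.32, P = 0.000169, adjusted P = 0.104). Those of IL1B and IL1RN became smaller, at 0.18 and 0.07. In this fit 4 of 9 members had an unadjusted P-value under 0.05, beside 11.8% of all genes, and none an adjusted one. With the monocyte score it was 5 of 9, beside 10.9% of all genes and again none adjusted, with IL1R1 at -0.35 (SE 0.15, P = 0.0209), IL18 at 0.43 (SE 0.20, P = 0.0367), IL18R1 at -0.44 (P = 0.0212), IL1A at 0.69 and IL1R2 at -1.34. With the platelet score it was 2 of 9, beside 5.63% of all genes. That score left IL1RN at 0.036 and IL1R2 at -0.87 (P = 0.0519).

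Sex was the only other property of the dogs in the labels. The study reports that the males were castrated and that almost all females were spayed. With group in the fit, no member passed an adjusted P-value of 0.05 between males and females in edgeR, which 0.122% of all genes did, and none had an unadjusted one under 0.05, beside 4.89% of all genes. The male minus female differences farthest from 0 were those of IL1R2 at 0.34 (SE 0.38) and IL18 at 0.30 (SE 0.19). The case over control difference of IL1R2 was -0.43 (SE 0.58) in females and -1.76 (SE 0.50) in males, and without control 9, a male, -0.43 (SE 0.45) and -1.03 (SE 0.38). The difference between the sexes had an unadjusted P-value of 0.0808 and an adjusted one of 1.00 in edgeR, and 0.313 and 1.00 without control 9. NLRP3 stood at -0.22 (SE 0.13) in females and 0.05 (SE 0.10) in males (interaction P = 0.117, adjusted P = 1.00). No interaction passed the adjusted threshold, which 0% of all genes passed, and 3.93% had an unadjusted P-value under 0.05.

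The spread between dogs was compared between the groups. The SD of log2 CPM was wider in controls for 9 of 9 members, as it was for 66.4% of all genes, and the median ratio of the control SD to the case SD was 1.38 for the members and 1.14 for all genes. Without control 3 these counts were 7 of 9 members and 53.5% of all genes, and without controls 3, 9 and 10 they were 7 of 9 and 43.7%, with median ratios of 1.15 and 0.95. A few dogs recurred at the ends. Control 9 was highest of all dogs for IL1RAP, IL18R1 and IL1R2, and it also had the highest neutrophil score and the lowest T cell and NK cell scores. Control 10 was among the 3 lowest dogs for 6 members, was lowest for IL1B, IL1RN and NLRP3, and had the lowest neutrophil score. Control 13 was highest for IL1R1 and IL1RN and had the highest monocyte score. Whether cell composition had a part in these levels was not tested.

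Across the 31 dogs, with the group means taken out, the members were compared in pairs. Of 36 pairs, 11 had a Pearson correlation past an adjusted P-value of 0.05 (permutation within groups, adjusted over the pairs), and all of these were positive. Their r was at least 0.47, which 30.6% of the member pairs and 5.41% of all pairs of the 13918 genes reached. All pairs share the libraries and their composition. The closest pair was IL18R1 and IL1R2 (r = 0.73, Spearman rho 0.63, permutation P = 1e-05, the smallest that 100000 resamples can give, adjusted P = 0.00036), and r was 0.69 without case 9 and control 9. IL1RAP was tied to IL18R1 (r = 0.67, rho 0.62), to IL1B (r = 0.66, rho 0.55), to IL1RN (r = 0.54, rho 0.55), to IL1R2 (r = 0.50, rho 0.43) and to NLRP3 (r = 0.48, rho 0.41). Adjusted permutation P-values of the 11 pairs reached at most 0.0364 for r, while for rho the pairs of IL1RAP with IL1R2 (0.0680) and NLRP3 (0.0752) and of IL1B with IL1RN (0.0855) missed the threshold. IL1A with IL1RAP passed by rho (0.49, permutation adjusted P = 0.0295) but not by r (0.42, adjusted P = 0.0972). Without the 2 dogs farthest from the median of the first gene, r ran from 0.39 for IL1RAP with IL1R2 to 0.69.

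NLRP3 was tied to IL1B (r = 0.62, rho 0.53), IL1RN (r = 0.52, rho 0.47), IL1A (r = 0.50, rho 0.51) and IL18R1 (r = 0.47, rho 0.51), and IL1B to IL1RN (r = 0.54, rho 0.40). IL1R1 and IL18 were in none of the 11 pairs, and IL1R1 with IL18 had an r of -0.23 (rho -0.24, permutation P = 0.226, adjusted P = 0.302). With the small RNA split taken out as well, the number of pairs past the threshold was again 11.

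**Figure D3:**
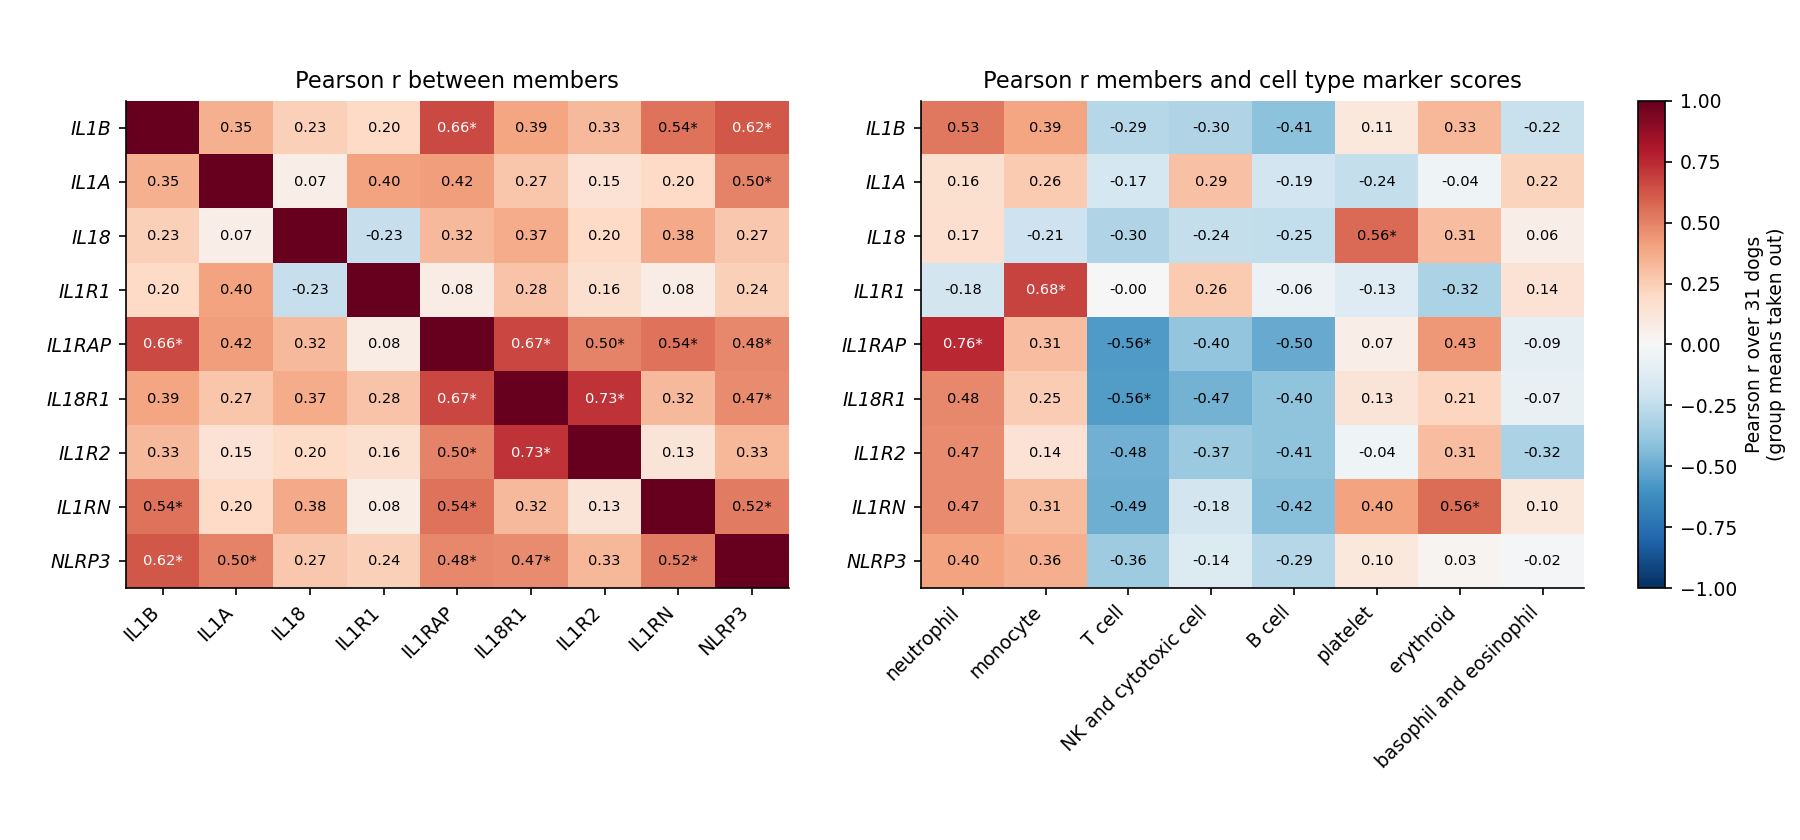
Pearson r over 31 dogs, with group means taken out, between the 9 members (left) and between members and 8 cell type marker scores (right), with an asterisk where the adjusted permutation P-value did not exceed 0.05. Of 36 member pairs, 11 carry an asterisk and all of these are positive, and IL1RAP with the neutrophil score has the highest r on the right, 0.76.

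The cell type score with the highest r was not the same for all members, a difference that was not tested. With the neutrophil score, r ran from -0.18 for IL1R1 to 0.76 for IL1RAP, and of the 9 members IL1RAP alone passed the adjusted threshold by r. IL1RAP was correlated with the neutrophil score (r = 0.76, rho 0.70, permutation adjusted P = 0.00216), with r at 0.69 without controls 9 and 18. IL1R1 was correlated with the monocyte score (r = 0.68, rho 0.65, adjusted P = 0.00324), with r at 0.54 without controls 3 and 13. IL18 was tied to the platelet score (r = 0.56, rho 0.49, r without controls 3 and 7 0.53) and IL1RN to the erythroid score (r = 0.56, rho 0.54, r without controls 10 and 13 0.55). IL1RAP and IL18R1 were inversely tied to the T cell score (both r = -0.56, rho -0.53 and -0.49), with r at -0.47 and -0.52 without the 2 dogs farthest from the median. By r, 6 of 72 relations passed the adjusted threshold (each of these last 4 at a permutation adjusted P of 0.0181). Their r was at least 0.56 in size, which 8.33% of the member relations and 7.78% of those of all 13918 genes with the 8 scores reached, so the share among the members was near that of all genes. By rho, those of IL18 with platelets and IL18R1 with T cells had adjusted P-values of 0.0611. IL1RN passed by rho with neutrophils (0.58, adjusted P = 0.0212) and inversely with T cells (-0.57, adjusted P = 0.0212), where by r it did not. All of the scores share the libraries and the normalization of the members. With the small RNA split taken out, IL1RAP with neutrophils and IL1R1 with monocytes passed, and the other 4 missed the threshold at adjusted P-values of 0.0509 to 0.103. Their r was then -0.57 for IL1RAP and -0.52 for IL18R1 with T cells, 0.55 for IL1RN with the erythroid score and 0.45 for IL18 with platelets.

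**Figure D4:**
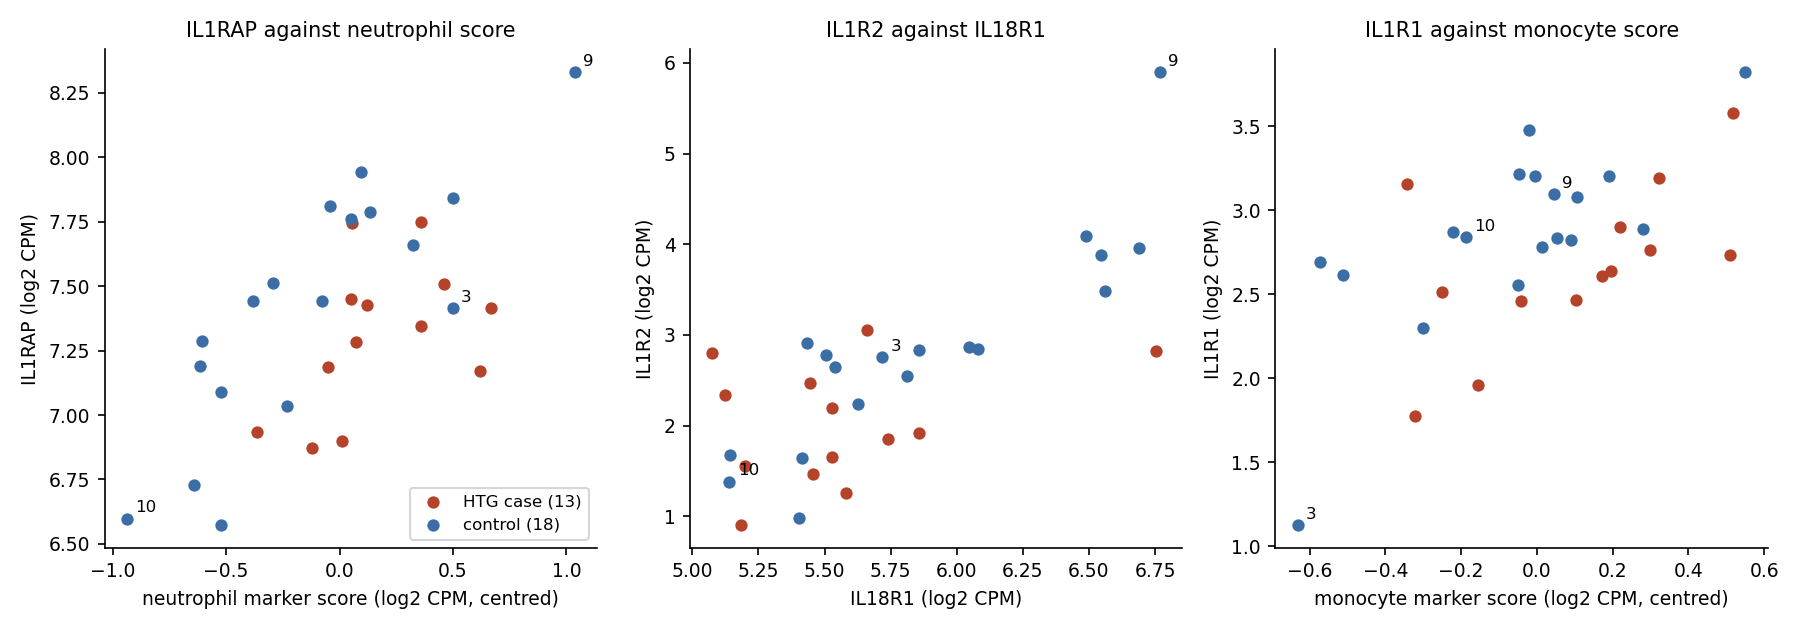
IL1RAP against the neutrophil marker score, IL1R2 against IL18R1, and IL1R1 against the monocyte marker score, in log2 CPM with 1 point per dog (13 HTG cases and 18 controls), and controls 3, 9 and 10 marked. Control 9 lies at the upper right of the left and middle panels and control 3 at the lower left of the right panel.

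Among 13917 other genes, the closest to each member over the 31 dogs were found by Pearson r of log2 CPM with group means taken out. The highest r of each member lay between 0.72 and 0.93, and how high this value is for genes in general was not examined. For IL18R1 the closest was IL18RAP, the other chain of the interleukin 18 receptor, at r = 0.93, the highest value of any member. For IL18 the 3 closest were DAPP1 (0.84), NEK7 (0.80) and ARHGAP6 (0.80), of which NEK7 is a kinase that NLRP3 needs to assemble. Fewer are named for the other members. IL1R2 was closest to PTK2B (0.75) and BCL2A1 (0.74), IL1R1 to ABCA9 (0.86) and SOAT1 (0.85), IL1RAP to KIF1B (0.84) and ATXN7 (0.84), and IL1RN to TGFBI (0.89). IL1B was closest to ETV6 (0.83) and BRWD1 (0.73), IL1A to ZNF655 (0.72) and NLRP3 to INPP4A (0.73). In the RefSeq gene order IL18RAP, IL18R1, IL1RL1, IL1RL2, IL1R1 and IL1R2 follow one another, and IL1A lies beside IL1B. Order alone does not show whether transcripts of neighbours overlap, and whether neighbours shared reads was not tested.

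The wider pathway was described with 71 further genes, of which 61 were found by symbol and 53 tested. None passed an adjusted P-value of 0.05 in edgeR, 2 were higher and 2 lower in cases at an unadjusted one under 0.05, beside 5.04% and 4.76% of all genes, and their median log2 fold change was 0.04. Values were positive for 32 of these 53 genes, beside 6331 of all 13918. Of the other inflammasome sensors and partners, 9 were tested. CASP8, an initiator caspase that can also cut interleukin 1 beta, had a log2 fold change of -0.17 (SE 0.06, P = 0.0128, adjusted P = 0.345), with 73.6, 84.7 and 93.1 CPM as the lowest, median and highest case and 74.6, 92.3 and 124 in controls. NLRP6 stood at -0.24 (-0.42 without case 7) and NOD2, a sensor of bacterial cell wall fragments, at 0.11, neither past an unadjusted P-value of 0.05.

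None of the 7 channels and pore formers had an unadjusted P-value under 0.05. The nearest was PANX1, a channel that releases ATP, at 0.20 (P = 0.0912), which was 0.025 with the platelet score as a covariate, 0.31 with the neutrophil score (P = 0.00933) and 0.26 without control 18 (P = 0.0183). GSDME, a pore-forming gasdermin, had a log2 fold change of 0.14 (0.062 without case 1, P = 0.629), KCNK6, a potassium channel, -0.17, and P2RX7, the ATP-gated channel upstream of NLRP3, -0.06 (-0.10 without case 3 and -0.022 without control 15). Of the other interleukin 1 family ligands and receptors, 4 were tested and all had negative values, with IL18RAP at -0.32 (SE 0.23, P = 0.177; -0.19 without control 9) and SIGIRR, an inhibitory receptor of the family, at -0.11 (-0.072 without control 15). The ligands IL33, IL36B, IL36RN, IL1F10 and IL37 were under the filter on low counts.

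In the signalling chain below the receptors, 13 of 17 tested genes had positive log2 fold changes, all of them at most 0.21 in size. TAB3, an adaptor of the kinase TAK1, was at 0.21 (P = 0.0369, adjusted P = 0.465) and NFKB2 at 0.19 (P = 0.0578), but without case 1 they were at 0.11 (P = 0.152) and 0.11 (P = 0.196), while the kinase subunit CHUK was at -0.11 (P = 0.0360, adjusted P = 0.461; up to P = 0.0672, without case 12) and REL at -0.16 (-0.044 without control 9, P = 0.644). Of 16 NF-kB response genes tested, 10 had positive values. PTX3, a soluble pattern recognition protein made by neutrophils and endothelium, was highest at 1.89 (SE 0.74, P = 0.0162, adjusted P = 0.362; 1.42 and P = 0.0655 without case 11), with 0.30 to 35.6 CPM in cases (median 2.40) and 0 to 16.9 in controls (median 0.43). CXCL8, the neutrophil attractant interleukin 8, had a log2 fold change of 0.55 (SE 0.33, P = 0.104). It was 0.72 without control 5 (P = 0.0319) and 0.39 without case 5 (P = 0.241). The lowest, median and highest dog had 9.15, 20.8 and 55.3 CPM in cases and 3.90, 12.4 and 45.4 in controls. BCL2A1, an inhibitor of cell death, was at -0.49 (SE 0.27, P = 0.0806) and at -0.21 without control 9 (P = 0.324) and -0.66 without case 9 (P = 0.0189), and NFKBIA, which holds NF-kB in the cytosol, at -0.11 (-0.20 without case 8 and 0.0012 without control 3).

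With the neutrophil score as a covariate, PANX1 and 4 more of the pathway genes named here had an unadjusted edgeR P-value under 0.05 that they did not have without it. Their log2 fold changes were -0.61 for BCL2A1, -0.50 for IL18RAP, -0.32 for NFKBIA and -0.25 for REL, and the adjusted P-values of all 5 ran from 0.244 to 0.387. Of all genes, 11.8% had an unadjusted P-value under 0.05 in that fit, and the genes named here had been picked by their P-values. TAB3 was at 0.12 (P = 0.202) and CHUK at -0.10 (P = 0.0586) in that fit, both under 0.05 only without the score. CHUK was at -0.10 (P = 0.348) on the high side of the small RNA split and at -0.11 (P = 0.115) on the low side. CASP8 was at -0.12 with the platelet score (P = 0.123) and at -0.07 on the high side of the small RNA split (P = 0.523). CXCL8 was at 0.73 with the monocyte score (P = 0.0409) and at 0.83 with limma-voom (P = 0.0180), but at 0.12 on the high side of the split.

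**Figure D5:**
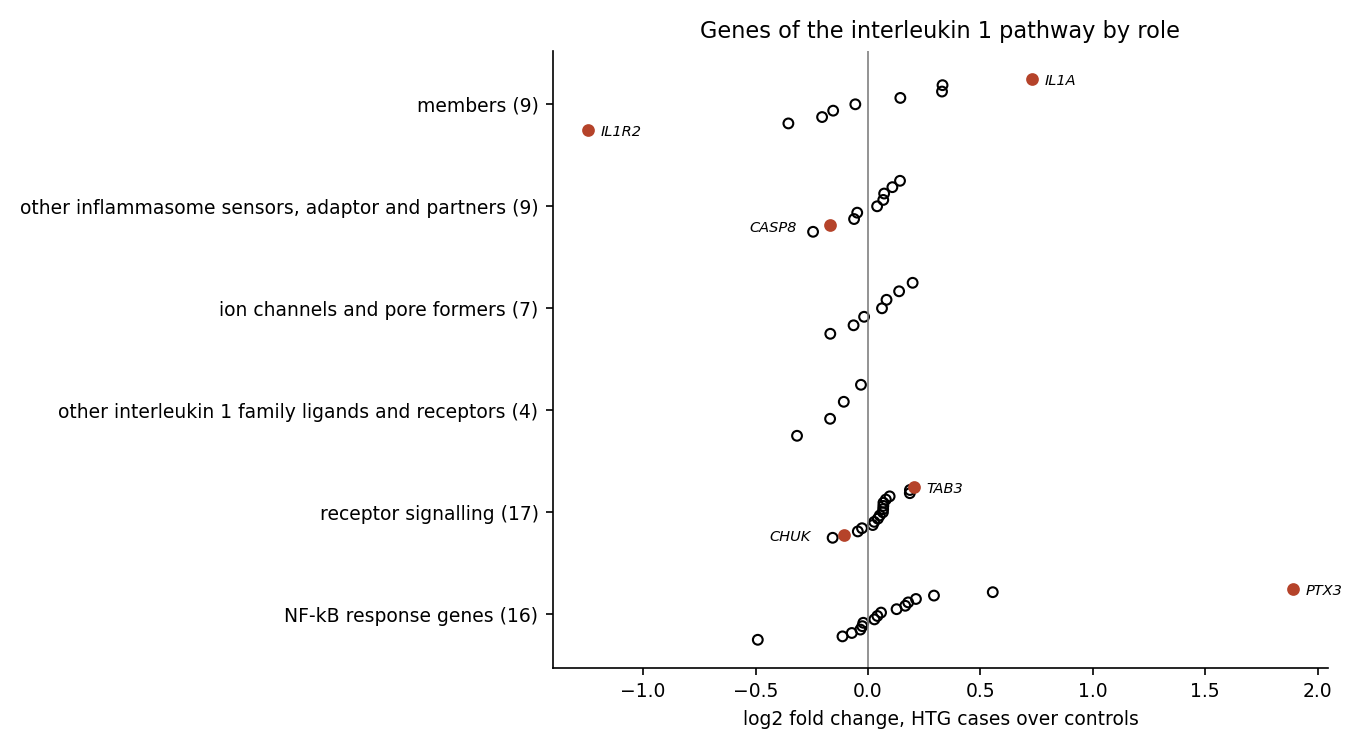
Log2 fold change of cases over controls (horizontal axis) for the 9 members and for 53 tested pathway genes in 5 lists (vertical axis, number of genes in brackets), with filled points for an unadjusted edgeR P-value under 0.05. IL1A, TAB3 and PTX3 lie to the right and IL1R2, CASP8 and CHUK to the left, and none of these passed the adjusted threshold.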

How the data were processed

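RNA from whole blood of 31 dogs was sequenced as 1 library per dog. Read trimming by the authors used Trimmomatic and alignment used HISAT2, both run through CHURP, and they deposited raw counts of read pairs per gene, for pairs with both mates mapped. The annotation and the program and strand setting of the counting are not given in the sources used here, although the library kit was stranded. The labels name polyA RNA and another extraction kit than the methods, which state removal of ribosomal RNA. The table gives Ensembl identifiers and no coordinates. RefSeq (assembly UU_Cfam_GSD_1.0, not that of the counts) was used for synonyms and gene order.

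In R 4.3.3, edgeR 4.0.16 applied TMM normalization, filterByExpr by group, glmQLFit and glmQLFTest without a covariate, and P-values were adjusted by the Benjamini-Hochberg procedure over 13918 genes with a threshold of 0.05. The batch covariate of the study's methods was not used because neither labels nor text say which dogs it marks. Log2 CPM had a prior count of 2. Permutation tests had 100000 resamples and were two-sided (Python 3.11.15, numpy 2.4.6, scipy 1.17.1, pandas 2.3.3), and figures were drawn with matplotlib 3.10.9. The tests were checked on simulated data.

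The members and lists were chosen with earlier results of these data known. Named were all members, up to 2 genes per pathway list and direction with the smallest P-value, and the genes most like each member, of which up to 3 are printed; MMP9 and the dogs named were chosen after their values were seen. Alternatives were DESeq2 1.42.0, limma-voom 3.58.1, other normalizations and filters, sex, the small RNA split, its sides, a replicate block, and marker scores as covariates, and leaving out dogs. Chosen after seeing the data were the split with the neutrophil score, DESeq2 with the split, marker correlations with the split taken out, and the interaction with sex without control 9.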

Additional observations from a re-analysis of the deposited data

How the results depend on the processing

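No member passed the adjusted threshold in the alternatives run (0 of 9, or 0 of 8 with at least 10 counts in every dog, and 0 to 0 on leaving out each dog), DESeq2 and limma-voom included. The number of all genes past it was 5 and moved to 89 with DESeq2, 0 with limma-voom, 1 with at least 10 counts in every dog, 0 on the high and 0 on the low side of the small RNA split, 3, 1 and 0 with the neutrophil, monocyte and platelet score, 28 without case 1 and control 3, 0 with the split and neutrophil score, and 107 with DESeq2 and the split; on leaving out 1 dog it ran from 1 (without case 1) to 154 (without control 3). Members with an unadjusted P-value under 0.05 numbered 2 (beside 9.81% of all genes), and 1 with limma-voom (11.2%), 1 with at least 10 counts in every dog (10.4%; IL1A was not tested), 1 on the high side (3.85%), 3 on the low side (10.6%), 3 with the split (9.83%), upper quartile normalization (10.4%), no filter (11.6%), DESeq2 and the split (6.92%) and without case 1 and control 3 (13%), 4 with the neutrophil score (11.8%), 5 with the monocyte score (10.9%), 4 with the split and neutrophil score (12.9%), and 2 to 3 on leaving out 1 dog. With a replicate block on the dog numbers that both groups use, 0 genes were called. In that fit 4 members had an unadjusted P-value under 0.05 (6.16% of all genes). Same-numbered dogs were correlated above 0.1 in 3 of 13 pairs (range -0.44 to 0.26), and 1 case correlated best with its own number. Such correlations cannot show whether dogs were matched. The study states that the groups were not matched for age or sex. Its dog numbers run by falling triglycerides within each group, so the block sets dogs of like triglyceride rank together.

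Signs turned as follows, with log2 fold changes. On the high side they were 0.037 for IL1RAP, -0.20 for GSDME, -0.057 for NOD2, 0.081 for NLRP6 and 0.11 for REL, and on the low side 0.041 for NFKBIA. P2RX7 was 0.023 with the block, 0.045 with the neutrophil score and 0.036 with the split and that score, and SIGIRR was 0.030 with the neutrophil score and 0.0094 with the split and that score. With the platelet score IL18 was -0.0045, KCNK6 0.036, NOD2 -0.029 and NLRP6 0.025, and without control 3 NFKBIA was 0.0012. The sex difference of IL1RN was -0.031 with the split, the interaction of IL1A with sex 0.034 without control 9, and the r of IL1A with the erythroid score was 0.0049 with the split taken out, where 2 instead of 6 marker relations passed (the other 4 had an r of -0.57, -0.52, 0.55 and 0.45). The causes were not tested. With 10 to 44 read pairs per case and 1 to 54 per control, IL1A had the lowest counts of the 9 members.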
